A study of Saccharomyces cerevisiae W303 with 8 samples.

Results

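The second 10 min of hyperosmotic stress was examined in budding yeast (Saccharomyces cerevisiae, W303) by subtracting the log2 ratio at 10 min of NaCl from the log2 ratio at 20 min. The difference is called the step here, and a positive step means more RNA at 20 min than at 10 min. All probes of the array were used, and 6092 of 6256 had a value on both arrays and a Cy5 signal well above background on at least 1 of them. The series holds 8 two-colour arrays, from 2 strains at 0, 10, 20 and 30 min of 0.4 M NaCl in rich medium (YPD) at 30 °C, with 1 array per strain and time. Both strains are labelled msn2msn4, that is, as lacking the chromosomal genes of the stress transcription factors Msn2 and Msn4, and both carry a plasmid labelled pMsn2pMsn2DNES. The strain with only these changes is called the control strain. The other, labelled msn2msn4cdc55 and called the cdc55 strain, is by its label also without CDC55, whose product is a B subunit that directs protein phosphatase 2A (PP2A) to its targets. Every array compared Cy5-labelled RNA of 1 sample with Cy3-labelled RNA of untreated control cells, which served as the reference throughout. The labels give 1 sample per strain and time, so no step has a replicate and no test was possible. The error printed beside a step is the SD over the 2 spots of a probe on the arrays, which is technical. The verbs rose and fell are used below for changes of at least 2-fold, which is a log2 difference of 1.

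The file attached to the control sample at 10 min and the one attached to the cdc55 sample at 0 min carry each other's values in the deposited value table, and so do the files of control cells after 30 min and cdc55 cells after 20 min. With both pairs exchanged, 5646 of 5742 complete rows (98.3%) of that table equalled 1 probe on all 8 arrays within 0.01, against 2 rows with the files as attached. All 4 arrays were assigned by the table. As attached, the array of the control strain at 10 min would hold HSP12, a small stress-induced membrane protein gene, at a log2 ratio of -0.17 in place of 6.39. The array placed at 10 min here comes from 1 of 3 files without a settings block and had 277 spots left out, mostly as non-uniform, against 30 at 20 min. The part of this difference in the steps was not tested. The SD of the log2 ratios over probes was 0.15 in the untreated control strain, 0.78 at 10 min, 1.02 at 20 min and 0.80 at 30 min, so the 20 min array had the widest spread of the control arrays. From 0 to 30 min CDC55 lay at 0.11, 0.14, 0.22 and 0.46 in the control strain, against -0.54, -0.23, -0.43 and -0.54 in the strain labelled cdc55. Its probe thus read a little below the reference in that strain and does not show the loss of the gene. MSN4, labelled as deleted in both, gave 0.00, 1.08, 1.25 and 1.10 in the control strain with a signal well above background, which goes against that label. The positions of both probes relative to the deletions were not known here.

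A rise in external salt draws water out of yeast cells. The MAP kinase Hog1 is then activated and drives glycerol synthesis, and stress factors such as Msn2 and Msn4 turn on a wide set of protective genes through STRE promoter elements. At the same time the genes for making ribosomes are turned down, and as cells adapt both arms of the response are known to fade. Because total RNA is compared as a ratio, a change in the RNA made per cell and a change in its decay cannot be told apart here.

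Steps past 2-fold were more often downward than upward. Against the array at 0 min, 430 probes (7.06%) were at least 2-fold higher and 344 (5.65%) at least 2-fold lower at 10 min. At 20 min the numbers were 618 (10.2%) and 630 (10.3%). In the step itself 375 probes moved at least 2-fold, of which 270 (4.43% of those measured) fell and the rest (1.72%) rose, with a median of 0.03 over all probes and a range from -3.11 to 2.48. Steps past 4-fold were 2 upward and 39 downward. The shares of 4.43% fallen and 1.72% risen are the background for the list counts below. Among the called genes picked by the naming rule, ALD4, ATG31, DIP5, ECM22, HO, IMD4, MES1, RAD34, RCK1, SAG1, SUL2, YDL094C, YDR010C and YFL015C were under 2-fold in at least 1 other way of processing the same arrays. So were ATG8, ATG9, CUR1, HES1, MGA1 and PRS3, which like CIN5, PHD1 and GLO4 were named after their values were seen. Of the 363 called probes with both spots on both arrays, 299 were past 2-fold on each spot. The untreated control array against the reference of the same strain gave 0 probes at least 2-fold higher and 3 (0.0493%) lower. That is 1 array, while a step is the difference of 2, so these shares are no rate of false calls for the step.

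The probes that rose or fell in the step came from every state at 10 min. Of those that rose, 40 had already been at least 2-fold up at 10 min and are called still building up, while 34 had been within 0.5 log2 units of 0 min and are called late rises. Another 5 had been at least 2-fold down and are called recovering. Of the 270 that fell, 102 had already been at least 2-fold down and are called still falling, 49 had been within 0.5 and are called late falls, and 38 had been at least 2-fold up and are called falling back. Of the remaining probes that rose, 15 had been up and 11 down by 0.5 to 1 at 10 min, and of those that fell, 14 had been up and 67 down by that much. A further 226 probes were at least 2-fold up at 10 min and moved by less than 0.5 in the step (held high), and 147 did the same on the low side (held low). The array at 10 min enters the change from 0 min and the step with opposite signs, so an error of that array on its own moves a probe toward falling back or recovering. These last classes hold 38 and 5 probes.

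**Figure D1:**
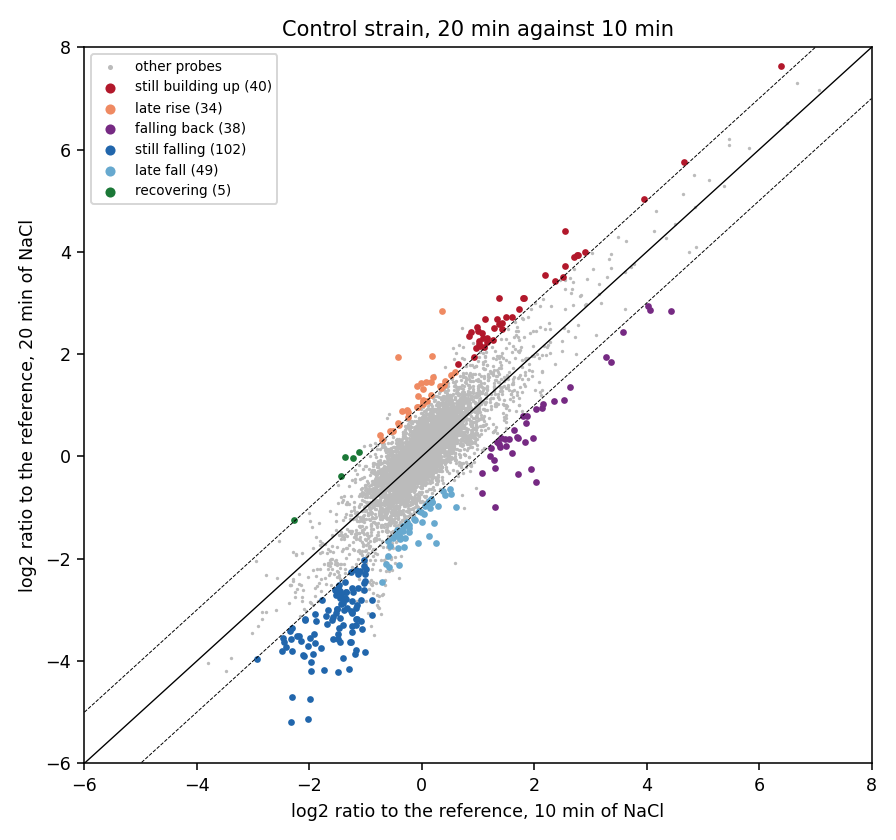
Log2 ratio to the untreated reference at 20 min (vertical) against 10 min (horizontal) in the control strain, 1 point per probe. The solid line marks no change and the dashed lines 2-fold changes; 102 still falling probes at the lower left and 40 still building up at the upper right extend the early response, while 38 falling back probes lie below the lower dashed line on the right.

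Of 121 measured genes of ribosome assembly 81 fell in the step and 0 rose. The small-subunit processome is the particle that cuts and folds the precursor of the 18S rRNA. Of its 55 measured genes 37 fell, where 4.43% of all probes did, and 0 rose. The median step was -1.42, where the median over all 6065 genes was 0.03. Genes for assembly of the 60S subunit gave 44 of 66 fallen and 0 risen with a median of -1.28. Together the genes of both lists supplied 59 of the 102 still falling probes, 1 late fall and 16 held low. In each of the lists 1 gene had a positive step, RRP9 at 0.19 and URB2 at 0.16.

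SYO1 encodes the importer that carries the ribosomal proteins Rpl5 and Rpl11 into the nucleus, and it had the lowest step of all. Its log2 ratios in the control strain were -0.24, -2.03, -5.13 and -2.40 at 0, 10, 20 and 30 min, so the step was -3.11 ± 0.06 (SD, 2 spots), or 8.61-fold lower at 20 min than at 10 min. It stood near its 10 min level again at 30 min. UTP23, a component of the small-subunit processome, lay at -0.19, -2.32, -5.19 and -2.40, a step of -2.87 ± 0.26. DHR2 and HCA4, RNA helicases of 18S rRNA maturation, had steps of -2.76 ± 0.05 and -2.67 ± 0.03. DBP3, a helicase of the 60S pathway, went from -1.48 at 10 min to -4.21 at 20 min and was at -1.73 at 30 min. Further genes among the 12 lowest steps were LTV1, a factor of 40S maturation and export, at -2.62, and KRE33, the acetyltransferase of the 18S rRNA, at -2.54. NOP7, a 60S assembly factor, had been at -0.85 at 10 min and reached -3.50 at 20 min, a step of -2.65 ± 0.06. Each of these genes was higher at 30 min than at 20 min.

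Not every factor of ribosome assembly took part in the step. REI1, a cytoplasmic factor of 60S maturation, lay at 0.23, -2.29, -2.40 and -0.74, so it was low by 10 min and moved by -0.10 afterwards. EMG1, a methyltransferase of the small subunit, was likewise at -1.47 and -1.53 at 10 and 20 min. UTP9 and BUD27 had steps of -0.50 and -0.48, and both belonged to the held low probes. RRP7 stayed between -0.13 and 0.07 at every time.

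The polymerases that transcribe ribosomal and transfer RNA genes had a median step of -0.54 over 24 subunits, and 6 fell. Of the 7 subunits whose gene names begin with RPA, which belong to RNA polymerase I, 5 fell, with a range of steps from -2.13 to -0.09. RPA135 and RPA190, the 2 largest subunits, went from -1.08 to -3.21 and from -1.17 to -2.97. The shared subunits RPC19 and RPO26 had been lower at 10 min, at -1.93 and -1.52, and their steps were 0.14 and 0.27. In the nucleolar RNA modification and tRNA processing list 11 of 29 genes fell, 0 rose and the median was -0.86. CBF5, the pseudouridine synthase of H/ACA particles, stepped by -1.83 ± 0.01, and TRM11, a tRNA methyltransferase subunit, by -2.07.

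Of 135 cytosolic ribosomal protein genes 6 fell, a share near the 4.43% of all probes, and 0 rose, with a median step of -0.34, and 122 were negative. Under the Cy5 signal without the reference this median was 0.00 where the median of all probes was 0.16, so the list's sign depends on the scaling. RPL7B had the lowest step, -2.13 ± 0.04, with log2 ratios of 0.05, -1.17, -3.29 and -1.28. Its near copy RPL7A started late, at 0.01 at 10 min and -1.28 at 20 min. Probes of such pairs may share target RNA, so their values are uncertain. Translation factors and tRNA synthetases gave 2 of 54 fallen, also near that share, with a median of -0.39, among them TIF4631, a subunit of the cap-binding complex, with a step of -1.22, and MES1, the methionyl-tRNA synthetase, with -1.03.

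AAH1, the adenine deaminase of purine salvage, went from -1.29 to -4.16, a step of -2.87 ± 0.10, and unlike SYO1 it was no higher at 30 min, at -4.29. URA7, one of the CTP synthases, stepped by -2.81 ± 0.01 to -3.82 and was at -2.71 at 30 min. Of 26 purine genes 3 fell, AAH1, IMD4 and PRS3, and 1 rose, the guanine deaminase gene GUD1, with a step of 1.16. The median of the purine list was -0.58. Over all probes 4.43% fell and 1.72% rose. The amino acid synthesis list had 5 fallen of 51 and a median of -0.38, with LEU9 at -1.69 and LYS4 at -1.48 lowest. RKI1, ribose-5-phosphate isomerase, stepped by -1.83 from -1.24 at 10 min, whereas SOL4 and NQM1 of the same pathway list rose by 1.17 and 1.08.

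**Figure D2:**
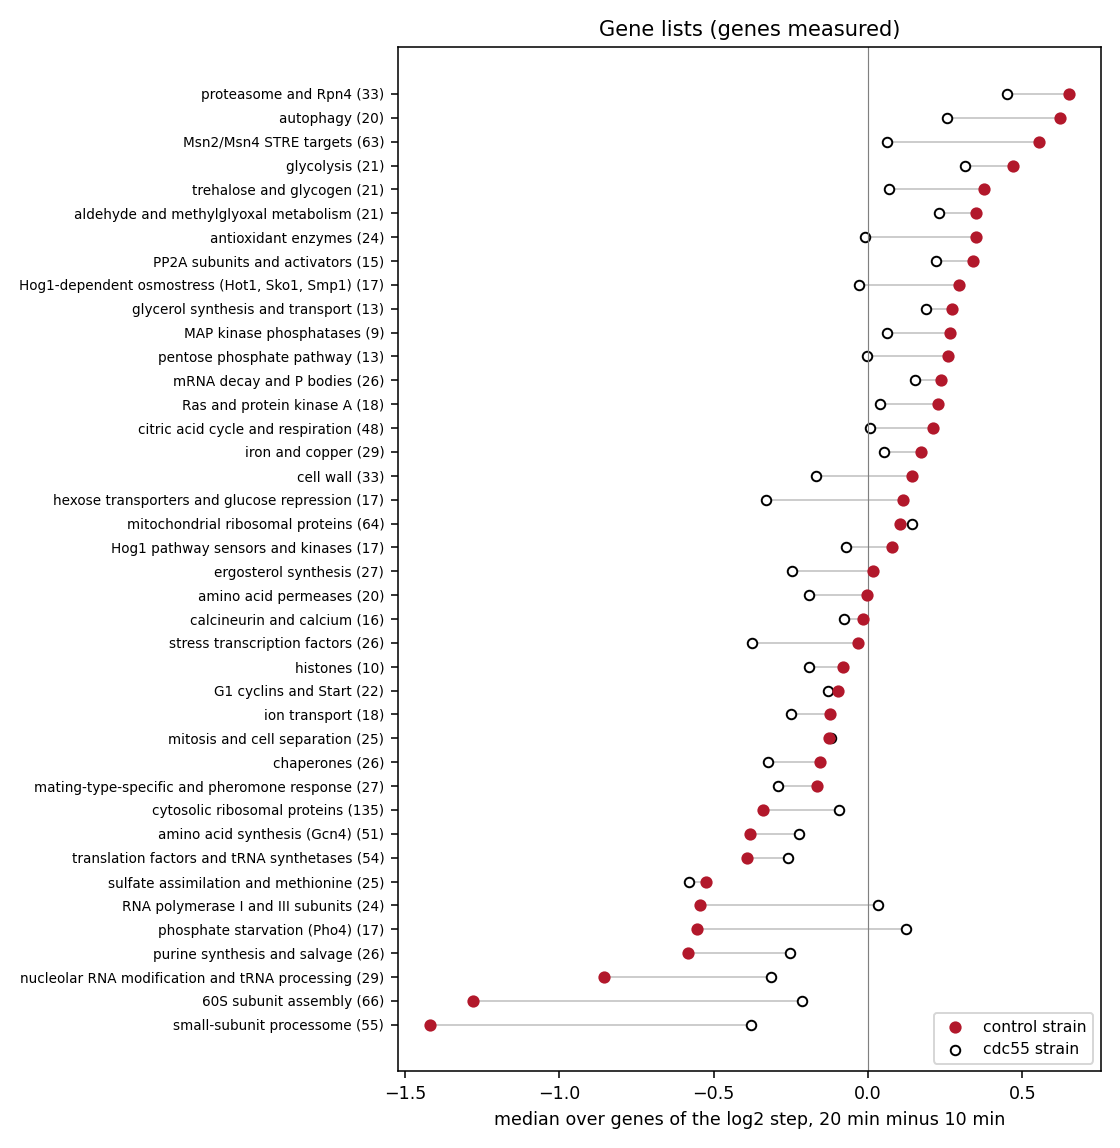
Median step of each of 40 gene lists in the control strain (filled) and the cdc55 strain (open), in log2 units, with the number of genes measured in brackets. Both ribosome assembly lists lie farthest to the left in the control strain, at -1.42 and -1.28, and the proteasome list farthest to the right at 0.65.

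The still falling probes as a group turned round after 20 min. Their median log2 ratio was -1.46 at 10 min, -3.18 at 20 min and -1.59 at 30 min, and 98 of 102 were higher at 30 min than at 20 min. So were 137 of the 147 held low probes, whose median change from 20 to 30 min was 0.64. Over all probes 213 (3.5%) rose and 69 (1.13%) fell between 20 and 30 min. This interval uses the 20 min array, as the step does with the opposite sign, so an error of that array would give such a turn. The cdc55 arrays, which share only the Cy3 reference RNA with the control step, gave the still falling probes medians of -1.65, -2.10 and 0.07 at 10, 20 and 30 min.

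Late falls were fewer and did not turn round in the same measure. Their median was -0.23 at 10 min, -1.39 at 20 min and -1.15 at 30 min, and 34 of 49 stayed within 0.5 of the 20 min value. NOP56, a core protein of box C/D particles, stepped by -1.75 ± 0.07 from -0.71 to -2.46. PLB2, a phospholipase B, went from -0.41 to -2.13 and was at -2.01 at 30 min. IZH1, a membrane protein of zinc homeostasis, went from -0.07 to -1.69. SMP1, a transcription factor downstream of Hog1, lay at -0.01, 0.13, -1.55 and -1.87. The hexose transporter genes HXT4 and HXT2 fell in the step and had still lower values at 30 min. HXT4 was at -0.59, -2.17 and -3.16, and HXT2 at -0.61, -1.95 and -2.79, at 10, 20 and 30 min. Hexose transporter genes are near copies of each other and their probes may share target RNA. MIG2, a repressor of glucose-repressed genes in the same list, rose from -0.58 to 0.82.

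The highest steps among genes still building up were those of GRE1, GID11, YNL092W, DAK1 and YFL015C. GRE1, a hydrophilin induced by osmotic stress, lay at 0.12, 2.54, 4.41 and 4.15, a step of 1.86 ± 0.08 or 3.64-fold. On the Cy5 signal alone its step was 3.01. GID11, a substrate receptor of the GID ubiquitin ligase, went from 1.37 to 3.10, and YNL092W from 0.87 to 2.43. DAK1, which phosphorylates dihydroxyacetone, went from 1.12 to 2.68 and was at 2.90 at 30 min. RRT8 and SNO4, the latter of the Hsp31 family, had steps of 1.51 and 1.45. The open reading frame YFL015C had 1.55 ± 0.45, but 0.57 after loess normalisation and 0.75 on Cy5 alone, so its place here is uncertain. As a class the 40 probes had medians of 1.37, 2.65 and 2.33 at 10, 20 and 30 min, and all 40 were at least 2-fold above the 0 min array at 30 min.

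Genes listed as STRE targets of Msn2 and Msn4 made up 10 of the 40. By their labels the cells lacked both chromosomal genes and carried the plasmid pMsn2pMsn2DNES, whose part in these steps was not tested. Of 63 measured genes of the STRE list 10 rose, where 1.72% of all probes did, and 0 fell. A positive step was seen in 55, with a median of 0.55 over the list. All 10 risen genes were already at least 2-fold up at 10 min, and another 20 of the list were held high. HSP12 lay at 0.25, 6.39, 7.63 and 7.43, a step of 1.23 ± 0.04. PGM2, phosphoglucomutase, went from 1.81 to 3.11, and DCS2, a regulator of mRNA cap metabolism, from 1.35 to 2.68. ALD4, the mitochondrial aldehyde dehydrogenase, reached 3.94 from 2.76. NQM1, a transaldolase, went from 4.67 to 5.75, a step of 1.08 that was 1.82 on Cy5 alone. The catalase gene CTT1, with 7.06 at 10 min and 7.16 at 20 min, had stopped rising, and it is outside the naming rule. The lowest steps of the list were those of GSY1, a glycogen synthase, at -0.46 and HSP42, a small heat shock protein, at -0.44. Both were still above the reference at 20 min, at 1.38 and 2.05.

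**Figure D3:**
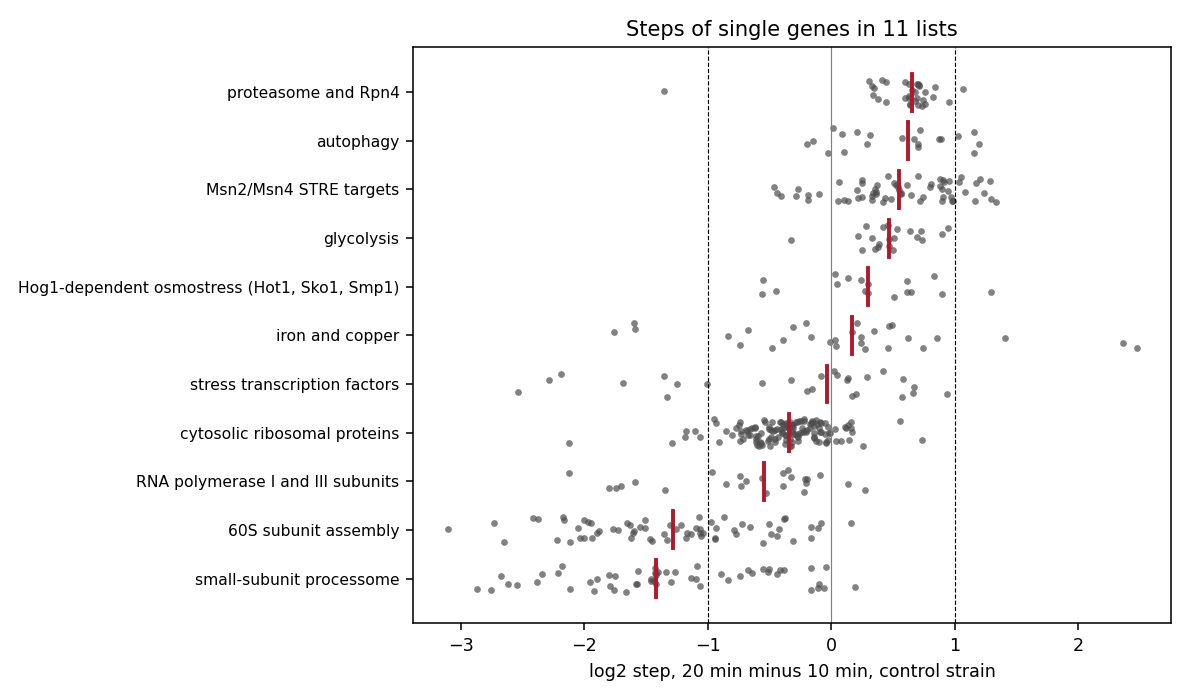
Step of each gene of 11 lists in the control strain, in log2 units, with the list median as a vertical bar and dashed lines at 2-fold. Points are spread vertically at random within a list; 32 proteasome subunits form a tight group right of 0 with RPN4 alone at -1.35, and the iron list spans from -1.76 to 2.48.

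Of 17 genes listed as Hog1-dependent 1 rose and 0 fell, where 1.72% and 4.43% of all probes did, with a median step of 0.30. Their dependence on Hog1 was not tested in these strains. GPD1, the glycerol-3-phosphate dehydrogenase that limits glycerol synthesis, lay at 0.01, 5.12, 5.41 and 4.80, a step of 0.30 ± 0.01. STL1, the glycerol importer, had 6.49, 6.52 and 5.37 at 10, 20 and 30 min. GPP2, glycerol-3-phosphatase, had 5.46, 6.08 and 6.18. GRE2, RTC3 and ENA1 had steps of 0.65, 0.62 and 0.30 from 4.85, 6.68 and 2.20 at 10 min, and the step of RTC3 was 1.22 on Cy5 alone. The member that rose was CHA1, the serine and threonine deaminase, at -0.08, 0.17, 1.46 and 2.07, a late rise. AHP1, a thioredoxin peroxidase, and GPP1, the second glycerol-3-phosphatase, had steps of 0.90 and 0.84. Glutathione reductase GLR1 and the alcohol dehydrogenase SFA1 were at 0.25 and 0.28. The regulators SKO1 and MSN1 were at 0.14 and 0.05, and HOR7 was at 0.51. Negative steps were those of the factor HOT1 (-0.56), the salt tolerance gene HAL1 (-0.45) and the phosphate transporter PHO84 (-0.55).

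Of the 13 genes of glycerol synthesis and transport 1 rose, DAK1. GUT2, the mitochondrial glycerol-3-phosphate dehydrogenase, and GCY1, a glycerol dehydrogenase, had steps of 0.88 and 0.49. The kinase GUT1, the channel FPS1 and the transport factor GUP1 were at 0.16, 0.24 and 0.27. Below 0 were GPD2, the paralog of GPD1, at -0.65, GUP2 at -0.51 and DAK2 at -0.03. GCY1 and GUP2 had 1 usable spot at 10 min. GPD2 lay at -0.04, -0.70 and -0.65 at 10, 20 and 30 min.

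Late rises were led by 2 genes of iron use. TIS11, a protein that binds mRNAs of iron-requiring proteins and promotes their decay, lay at 0.06, 0.37, 2.84 and 2.28, a step of 2.48 ± 0.07 or 5.56-fold, the highest of all. SIT1, a transporter of iron bound to siderophores, lay at -0.44, -0.43, 1.94 and 2.71, a step of 2.36 ± 0.09. CCC2, the copper pump that loads the iron oxidase Fet3, was the third of the 29 iron and copper genes to rise, with a step of 1.41. Other genes of the list fell. FIT1, a cell wall mannoprotein that retains siderophore iron, was at 4.43 at 10 min and 2.85 at 20 min, the metal reductase gene FRE7 went from -1.26 to -3.02, and FET4, the low-affinity iron transporter, stepped by -1.60 with 1 spot usable. The median of the list was 0.17. In the cdc55 strain TIS11 and SIT1 started lower, at -1.21 and -1.34 at 0 min, and stepped by 1.90 and 0.99. CCC2 and FET4 are named here after their values were seen.

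Other late rises were ECM29, a tether of the proteasome, with 0.07 and 1.45 at 10 and 20 min, and GPG1, a proposed partner of the G protein Gpa2, with 0.19 and 1.56. The 34 late rises had medians of 0.03, 1.14 and 1.21 at 10, 20 and 30 min, and 18 were at least 2-fold above 0 min at 30 min. YTP1 rose from 0.71 to 2.52, a step of 1.81 ± 0.13, and was at 3.04 at 30 min. It had been up by less than 2-fold at 10 min and belongs to neither class.

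RPN4 fell in the step, and of 32 proteasome subunit genes 1 rose. Rpn4 is the transcription factor of the proteasome genes and is itself degraded by the proteasome. RPN4 lay at -0.13, 1.72, 0.37 and 0.33, a step of -1.35 ± 0.02. All 32 measured proteasome subunit genes had a positive step, from 0.31 to 1.07 with a median of 0.67, while 1 passed 2-fold, PRE1 of the core particle with -0.42 at 10 min and 0.65 at 20 min. Their median log2 ratio was 0.16, 0.79 and 0.94 at 10, 20 and 30 min. In the cdc55 strain the steps of the same 32 genes ranged from 0.09 to 0.88 with a median of 0.46, and that of RPN4 was -1.59.

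Genes of autophagy had a median step of 0.62, and 4 of 20 rose, where 1.72% of all probes did. ATG7, the activating enzyme of the Atg8 and Atg12 conjugation systems, went from 0.72 to 1.92. ATG31 of the Atg1 kinase complex went from -0.93 to 0.23, with 0.94 as its step after loess. The others were ATG8 (1.16), the protein coupled to autophagic membranes, and ATG9 (1.03), the membrane carrier protein, both chosen after their values were seen. After loess their steps were 0.91 and 0.83, so the count of 4 depends on the processing. ATG14 was held high, at 2.08 and 1.93. Of 21 genes of glycolysis 0 rose or fell and 20 had a positive step, with a median of 0.47. TPI1, triose phosphate isomerase, had the highest at 0.95. The antioxidant list had 0 called of 24 and a median of 0.35, and trehalose and glycogen genes 1 of 21, PGM2, and a median of 0.38. The citric acid cycle and respiration list gave 0 of 48 and 0.21, and mitochondrial ribosomal proteins 0 of 64 and 0.10.

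Genes already falling back included several transcription factors. NRG1 and NRG2 encode repressors of glucose-repressed genes. NRG1 lay at -0.02, 2.03, -0.51 and -2.06, a step of -2.54 ± 0.05 or 5.81-fold. It was above the reference at 10 min and below it at 20 min. NRG2 did the same, with -0.06, 1.94, -0.25 and -1.44 and a step of -2.19 ± 0.01. ROX1, the repressor of hypoxic genes, lay at 0.28, 1.30, -0.99 and -1.12. CIN5, a bZIP factor of salt tolerance, was still above the reference at 20 min, with 3.28, 1.95 and 0.20 at 10, 20 and 30 min. With RPN4, these were 5 of the 38 falling back probes. Of 26 stress transcription factor genes 8 fell and 0 rose, where 4.43% and 1.72% of all probes did. The others that fell were SMP1, PHD1 and MGA1. The list's median was -0.03, and it was 0.15 on Cy5 alone, where the median of all probes was 0.16. GAT2 had the highest step, 0.94, and HSF1, the heat shock factor gene, lay at 0.54 and 1.20 at 10 and 20 min.

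BTN2, which sequesters misfolded proteins, lay at -0.07, 1.72, -0.35 and -0.13, with a step of -2.07 ± 0.02 that was -1.24 on Cy5 alone, and it fell back as well. Its paralog CUR1 went from 1.41 to 0.36. APJ1, an Hsp40 co-chaperone, went from 1.07 to -0.72. BTN2, CUR1 and APJ1 are outside the chaperone list of 26 genes, whose lowest step was -0.56. That list had a median step of -0.16 with 1 gene called, HSP12, and 11 positive members. On Cy5 alone it was 0.11, where the median of all probes was 0.16, so its sign depends on the scaling. The list lay below the median of all probes both on the ratio and on Cy5 alone.

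RCK1, a protein kinase related to the Hog1 target Rck2, lay at 2.14 and 0.95 at 10 and 20 min, a step of -1.19 ± 0.28 that was -0.60 on Cy5 alone. It was the called gene of the Hog1 sensor and kinase list, which had 17 measured. Of 27 ergosterol genes 3 fell, where 4.43% of all probes did. They were the sterol regulators UPC2 and ECM22 and the sterol-binding protein gene HES1. Of these HES1 fell back, ECM22 was a late fall, and UPC2, with 0.09, 0.76, -1.02 and -1.56, had been up by less than 2-fold at 10 min. Single genes of the falling back class were IPT1, a sphingolipid synthesis gene, which went from 1.60 to 0.07, CSH1, of the same pathway, from 1.85 to 0.65, and RSB1, from 1.98 to 0.35. The ammonium permease gene MEP1 went from 1.55 to 0.34 and the uracil permease gene FUR4 from 1.40 to 0.18. These 5, HES1 and CUR1 were named after their values were seen. The falling back class had medians of 1.76, 0.36 and 0.08 at 10, 20 and 30 min, 30 of 38 were lower at 30 min than at 20 min, and 8 were below their 0 min value at 20 min.

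**Figure D4:**
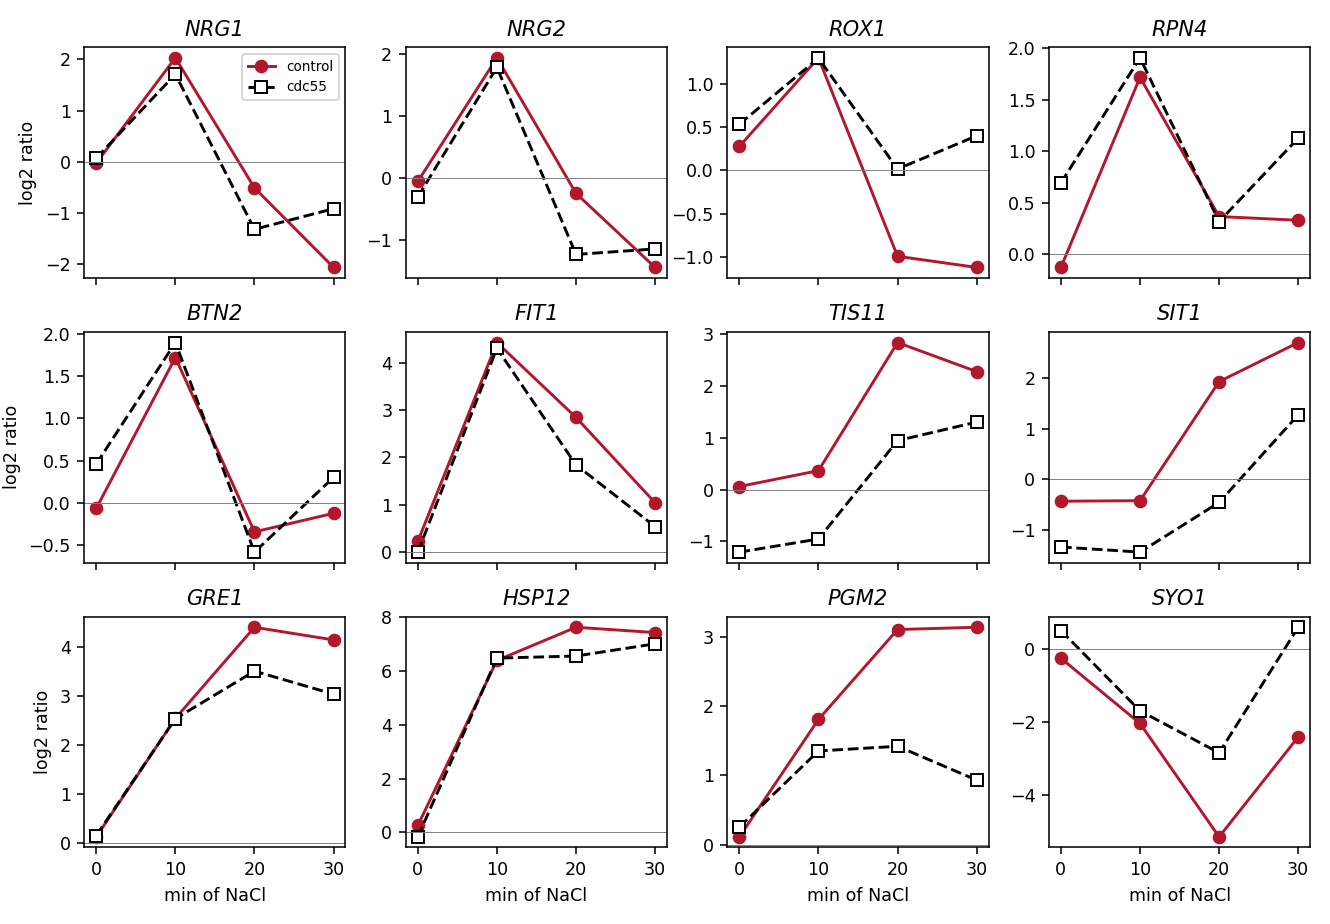
Log2 ratio to the untreated reference against min of NaCl for 12 genes in the control strain (filled circles) and the cdc55 strain (open squares), 1 array per point and no error bars. NRG1, NRG2, ROX1, RPN4 and BTN2 peaked at 10 min in both strains, TIS11 and SIT1 rose after 10 min in both, and PGM2 went on to 3.11 in the control strain while it was at 1.42 in the cdc55 strain at 20 min.

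Of the 344 probes that had been at least 2-fold down at 10 min 5 rose, where 1.72% of all probes did. TPO2, a polyamine exporter, lay at 0.11, -1.36, -0.01 and 1.64, so it passed the untreated level by 30 min. CMR3, a zinc finger protein gene, went from -1.23 to -0.03 and RAD34, a DNA repair gene, from -2.28 to -1.24. The open reading frames YDR010C and YDL094C stepped by 1.20 and 1.04. RAD34, YDR010C and YDL094C did not pass 2-fold after loess, where their steps were 0.79, 0.75 and 0.59.

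Nutrient genes with their own regulators had varied courses. PHO84, the high-affinity phosphate transporter, was at -3.39 by 10 min, at -3.94 at 20 min and at -1.10 at 30 min. Of 17 phosphate genes 3 fell, where 4.43% of all probes did. The fallen acid phosphatase genes PHO11 and PHO12 stepped by -1.67 and -2.19. Both are near copies and may share probe signal. GAP1, the general amino acid permease, went from -1.13 to -2.29 and -3.22. AGP2 and DIP5, another pair of permease genes, rose by 1.19 and 1.01, and the list of 20 had 2 risen, 2 fallen and a median of 0.00. Of 25 sulfate and methionine genes 2 fell, with a median of -0.52. SUL2, a sulfate permease, went from 0.58 to -0.47, and MMP1, the S-methylmethionine permease, from -0.48 to -1.97.

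Of 21 genes of aldehyde and methylglyoxal metabolism 2 rose and 1 fell, with a median step of 0.35. Over all probes 1.72% rose and 4.43% fell. ALD5, a mitochondrial aldehyde dehydrogenase of growing cells, went from -1.53 to -3.07 while ALD4 rose, with 0.97 as its step after loess. The glyoxalase gene GLO4 went from -0.08 to 1.37, with 1 usable spot on 1 of the arrays. The pentose phosphate list had 2 risen and 1 fallen of 13 and a median of 0.26. In the Ras and protein kinase A list 1 of 18 fell, RAS1, which went from -1.44 to -2.76, and the kinase subunit gene TPK2 had the highest step, 0.97. The mRNA decay list had 1 risen of 26, DCS2, and the MAP kinase phosphatase list 0 called of 9, with medians of 0.24 and 0.27. The hexose transporter and glucose repression list had 1 risen and 2 fallen of 17 and a median of 0.11. Sensors and kinases of the Hog1 pathway had a median of 0.08.

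Genes without a clear move in the step were those of the cell cycle, histones and ion transport. The G1 list had 0 called of 22 and a median of -0.10, histones 0 of 10 and -0.08, and ion transport 0 of 18 and -0.12. In the mitosis and cell separation list 1 of 25 fell, a share near the 4.43% of all probes. It was the endonuclease gene HO, at -2.34 and -3.42 at 10 and 20 min. The mating list had 1 fallen of 27, SAG1, the alpha-agglutinin, and a median of -0.16. PP2A subunits and activators had 0 called of 15 and a median of 0.34. In the cell wall list the numbers were 0 of 33 and 0.14, and in the calcineurin list 0 of 16 and -0.02.

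**Figure D5:**
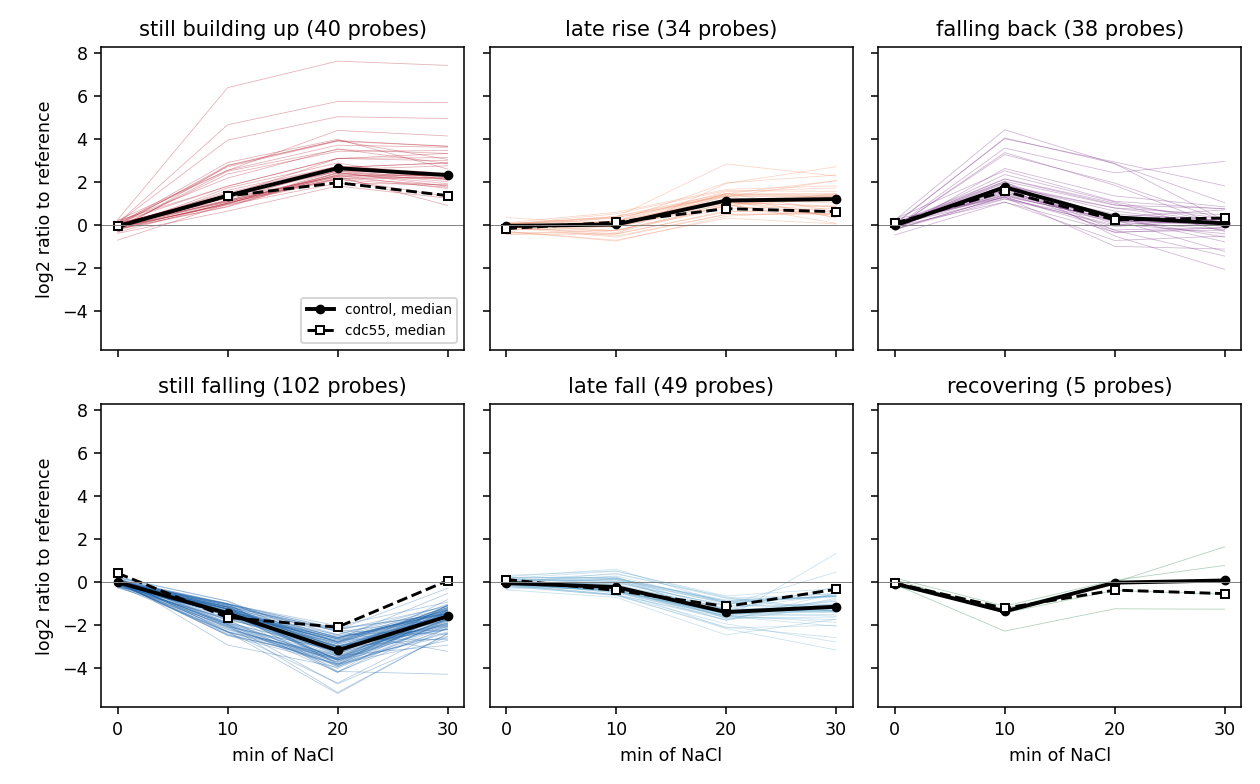
Log2 ratio against min of NaCl for the 6 classes of probes that rose or fell in the step. Thin lines are single probes of the control strain, the thick line their median, and the dashed line with squares the median of the same probes in the cdc55 strain; at 20 min the still falling probes had medians of -3.18 and -2.10, and the falling back probes 0.36 and 0.24.

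The same interval in the cdc55 strain is an independent set of arrays apart from the common reference. There 67 probes (1.1%) rose and 193 (3.17%) fell. Of the probes that rose in the control strain 101 had a positive step in the cdc55 strain and 16 rose, which was 15.2% of the control calls and 23.9% of the cdc55 calls. Of the 270 that fell 239 had a negative step and 107 fell, 39.6% and 55.4% of the calls. The median step of the probes that rose was 1.16 in the control strain and 0.61 in the cdc55 strain, and that of the probes that fell was -1.36 and -0.85. The probes were chosen on the control step, so their smaller values in the cdc55 strain are no result about the strains. Over 6091 probes the steps of both strains had a Pearson r of 0.60 and a Spearman rho of 0.56, given as a description since all arrays share the reference RNA and the probes their sequence.

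The classes differed in how far they recurred in the cdc55 strain, and the differences were not tested. The classes were chosen on the control arrays, so smaller values in the cdc55 strain are again no result about the strains. Of the falling back probes 37 of 38 had a negative step there and 26 fell, with a median of -1.38 against -1.28 in the control strain. All 34 late rises had a positive step, 7 of them rising. Of the still building up probes 37 of 40 were positive and 1 rose, with a median of 0.43 against 1.18. Of the still falling probes 76 of 102 were negative and 25 fell, with a median of -0.48 against -1.55. The STRE list had 0 risen and 2 fallen in the cdc55 strain with a median of 0.06, where the control strain had 10 and 0 with 0.55. Over all probes 1.1% rose and 3.17% fell in the cdc55 strain. HSP12 was at 6.48 and 6.56 at 10 and 20 min there, PGM2 at 1.35 and 1.42 and DAK1 at 0.30 and 0.80. The processome and 60S lists had median steps of -0.38 and -0.21 there, with 13 and 15 fallen and 5 and 3 risen. They had been lower by 10 min in the cdc55 strain, with medians against 0 min of -1.84 and -1.86. In the control strain these were -1.38 and -1.43. At 20 min the medians against 0 min were -2.15 and -2.38 in the cdc55 strain and -2.67 and -2.82 in the control strain.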

How the data were processed

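Array data were analysed from the deposited scanner files, 1 per sample. Per the file headers, these give the intensity of each spot and its surroundings for both dyes. Per the file headers they also give the log10 of red over green, after the Agilent software had subtracted the background and corrected for dye. Agilent Feature Extraction 10.5.1.1 and a design on sacCer1 are named in the headers of 5 of 8 files. The deposited value table holds log2 values whose processing the authors do not state. Its columns match the scanner log2 ratios of 1 probe within 0.01 with both file pairs exchanged, so scale and direction are those of Cy5 over Cy3. The medians of its columns from 0 to 30 min were -0.00, -0.01, 0.05 and -0.00 for control cells and 0.01, 0.00, 0.02 and 0.01 for cdc55 cells. Row names matched in 0 cases, so 5646 of 6183 rows were named through their values.

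The deposited log10 ratios were turned into log2, spots flagged non-uniform were left out, and the mean over a probe's spots was used. Among 6256 probes, 7 lacked a usable spot at 10 or 20 min and 157 were not well above background in Cy5 on either. The median Cy5 intensity was 6632 at 10 min and 5523 at 20 min over backgrounds of 45 and 44, no spot was saturated, and the number of arrays limits the precision. Of 6228 systematic names 5740 were in the RefSeq gene table, and 26 genes with several probes were taken by their brightest. Python 3.11.15, numpy 2.4.6, pandas 2.3.3, scipy 1.17.1 and matplotlib 3.10.9 were used, with R 4.3.3 and limma 3.58.1 for loess after normexp with an offset of 50. The counting of steps and classes was tested on simulated data.

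The genes, the 40 gene lists and the classes were chosen with earlier results of these data known. Genes were named if they were among the 12 highest or 12 lowest steps or the 5 most extreme of a class. The 2 highest and 2 lowest of each list were named too. For these, both spots had to be usable and well above background. The glycerol and Hog1-dependent lists were named in full, without that condition. Others are said to be named after their values were seen. With 1 array per strain and time no test was made. Alternatives were loess, centring on the median, the value table, the files as attached, single spots, non-uniform spots kept, other filters on dim probes, Cy5 alone, the ratio to the reference in place of the 0 min array, and 1.5-fold in place of 2-fold.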

Additional observations from a re-analysis of the deposited data

Results flagged for a closer look

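Of the 270 probes that fell between 10 and 20 min in the control strain, 239 had a negative step in the cdc55 strain too. Of the others, NOG2, GFD2, YDR024W and COI1 rose there by at least 2-fold, and RPL7B is the gene picked by the naming rule whose opposite step was at least 0.5. The rest, whose opposite steps were under 2-fold, are not described. With 1 array per strain and time the difference was not tested for any of them. RPL7B, a 60S ribosomal protein gene, stepped by -2.13 in the control strain and by 0.62 in the cdc55 strain. It was at -1.17 and -3.29 at 10 and 20 min in the one and at -2.25 and -1.62 in the other. Its probe may share target RNA with that of RPL7A. NOG2, a GTPase of 60S assembly, stepped by -1.06 and 1.86, with log2 ratios of -2.30 and -2.84 at 10 min and -3.36 and -0.98 at 20 min. GFD2 stepped by -1.32 and 1.32, after -2.49 and -3.25 at 10 min.

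YDR024W and COI1 were not well above background at 20 min in the control strain, so the sizes of their control steps are not measured folds. The YDR024W probe gave -1.20 in the control strain and 1.19 in the cdc55 strain. COI1 gave -1.02 and 1.43.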

How the results depend on the processing

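No paired analysis was possible because each strain and time has 1 array and the labels give no replicate numbers. Of 83 named genes past 2-fold, the direction was kept by 83 under each alternative but the value table, which held 79 and kept 79, and the files as attached, which kept 73. Past 2-fold remained 75 after loess, 80 after centring, 77 and 82 on the first and second spot and 75 on Cy5 alone. After loess 65 probes rose, and the classes still building up, late rise and recovering held 25, 16 and 1. Centring left 22 late rises and 3 recovering probes. Recovering probes numbered 3 in the deposited value table and 10 on the first spot. On Cy5 alone the median step of all probes was 0.16, 189 probes rose and 212 fell (of 375 called on the ratio 270 fell), the same 3 classes held 61, 74 and 8, and 5 lists had a median of 0.5 or more and 3 one of -0.5 or less. At 1.5-fold 547 rose and 670 fell, with 159 still building up, 293 late rises, 119 falling back, 259 still falling, 246 late falls, 67 recovering, 578 held high and 484 held low, by the lower threshold itself. With the files as attached 751 rose and 691 fell, the same 8 classes held 5, 524, 21, 6, 543, 59, 7 and 21, and 14 lists had a median of 0.5 or more. There the sulfate list was at 0.21, CMR3 at -0.0035, FIT1 at 2.85, GAP1 at 0.53, NRG2 at 0.056, PHO11 at 1.11, RAD34 at -1.20, RCK1 at 0.17, SUL2 at 0.86, TPO2 at -0.78 and YDL094C at -0.15, since the array at 10 min is then another one. For the other alternatives the cause of a change was not tested. List medians near 0 changed sign in some settings. Signal over background limits 6 called probes, whose Cy5 signal was not well above background on 1 of the arrays.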

Other observations

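Of the 38 genes of the falling back class 31 had a systematic name in the RefSeq gene table, against 102 of 102 still falling genes, 38 of 40 still building up and 5740 of 6228 names on the whole array. The difference was not tested. Several of the rest are open reading frames with high ratios at 10 min. YGL052W lay at 4.02, 2.93 and 1.83 and YOR345C at 3.58, 2.43 and 2.96 at 10, 20 and 30 min. The step of YOR345C was -1.15 ± 1.08 (SD, 2 spots), so its place in the class is uncertain. ATG41, an autophagy gene outside the autophagy list, was the late fall with the largest turn, at 0.25, -1.68 and 1.34 at these times, and at -0.25 and -2.15 at 10 and 20 min in the cdc55 strain. Its probe had 1 usable spot on 1 of the control arrays.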
